A study of Mus musculus with 2 samples.

Results

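The 55 genes described here are transcribed in dividing cells, 24 of them around DNA replication (S genes, listed from Mcm2 to Hells) and 31 in late cell cycle (G2/M genes, listed from Mki67 to Pbk). They were chosen by name and not by their values, and all 55 were among the 27998 genes counted. The data were droplet-based scRNA-seq of dissociated lungs of C57BL/6 mice at 2 weeks of age. One library came from mice kept in room air (21% O2) and the other from mice kept in hyperoxia (80% O2) from birth to postnatal day 14, an exposure used as a model of bronchopulmonary dysplasia. Each library was made from 8 pooled mice, so that a difference between the conditions cannot be told apart from a difference between the 2 libraries, and intervals given below cover counting error only. The question was in which cell types, and in which phase of the cycle, cells of the hyperoxic lung carried more or fewer of these transcripts.

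Cells that enter the cycle first make the proteins that copy DNA. The MCM proteins open the double helix, PCNA clamps the polymerases to it, thymidylate synthase and ribonucleotide reductase supply nucleotides, and E2F factors switch many of these genes on. After replication, cyclins A and B with CDK1, the Aurora and Polo-like kinases, kinetochore proteins and spindle motors condense, attach and separate the chromosomes. Many of these late genes are held off in resting cells by a repressor that binds the CHR element (cell cycle genes homology region), and they are switched on in G2 through CCAAT boxes bound by NF-Y. The alveolar stage of lung growth in the mouse falls in the first weeks after birth, when capillary, stromal and epithelial cells divide and alveolar macrophages renew themselves in place.

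CHR and E2F matches were found at unlike shares in the 2 lists, as given below the sequences. The upstream sequence of 5 members is therefore shown, 2 S genes and 3 G2/M genes. Each is the 200 bases before the RefSeq transcription start in GRCm38.p6, 5′ to 3′ on the gene's strand. Capitals mark matches to CHR (TTTGAA) and CCAAT on either strand in all 5, and in the S genes also E2F sites (TTTGGCGC, TTTCCCGC, TTTGCCGC or TTTCGCGC, on either strand). The windows are chr8:75109309-75109508 (plus strand), chr1:128359706-128359905 (minus strand), chr7:135716380-135716579 (minus strand), chr11:99024190-99024389 (minus strand) and chr9:70421555-70421754 (minus strand), and none overlaps an annotated exon.
Mcm5: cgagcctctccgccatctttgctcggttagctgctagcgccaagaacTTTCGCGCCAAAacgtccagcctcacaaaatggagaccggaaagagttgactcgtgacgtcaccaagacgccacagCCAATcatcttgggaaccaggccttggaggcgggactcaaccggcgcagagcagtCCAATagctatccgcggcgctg
Mcm6: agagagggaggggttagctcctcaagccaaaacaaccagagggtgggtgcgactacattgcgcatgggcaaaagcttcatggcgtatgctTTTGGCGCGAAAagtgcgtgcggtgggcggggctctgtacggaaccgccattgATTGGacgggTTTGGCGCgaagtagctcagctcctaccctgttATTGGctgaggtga
Mki67: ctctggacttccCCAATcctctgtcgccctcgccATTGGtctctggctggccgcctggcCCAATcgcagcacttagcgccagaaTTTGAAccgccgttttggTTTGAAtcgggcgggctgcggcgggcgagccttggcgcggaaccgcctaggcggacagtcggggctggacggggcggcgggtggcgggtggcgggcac
Top2a: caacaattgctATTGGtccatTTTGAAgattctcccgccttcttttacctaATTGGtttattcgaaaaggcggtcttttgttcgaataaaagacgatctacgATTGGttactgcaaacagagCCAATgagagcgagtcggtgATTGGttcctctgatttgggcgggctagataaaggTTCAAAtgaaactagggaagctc
Ccnb2: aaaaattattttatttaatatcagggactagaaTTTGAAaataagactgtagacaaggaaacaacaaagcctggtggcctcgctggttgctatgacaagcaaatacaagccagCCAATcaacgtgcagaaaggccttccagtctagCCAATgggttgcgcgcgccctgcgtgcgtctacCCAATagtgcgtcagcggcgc

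Mcm5 and Mcm6, subunits of the replicative helicase, hold overlapping E2F matches that start 153 and 149 bases before the Mcm5 start and 110 and 106 bases before that of Mcm6, and Mcm6 holds another at 47 bases. Both also hold CCAAT matches, at 77 and 22 bases in Mcm5 and at 57 and 14 bases in Mcm6. Mki67, the gene of the proliferation antigen Ki-67, and Top2a, which untangles replicated DNA, each hold 2 CHR matches, at 116 and 98 bases and at 179 and 23 bases. Ccnb2, which encodes cyclin B2, holds 1 CHR match at 167 bases and CCAAT boxes at 87, 54 and 21 bases. Promoter windows of 300 bases (250 before and 50 after the start) were given for 48 of the 55 members. In these windows CHR was found in 20 of 27 G2/M genes (74.1%) and 3 of 21 S genes (14.3%), against 18.1% of all 27025 promoters. CHR together with CCAAT was found in 66.7% of the G2/M genes, 9.52% of the S genes and 7.12% of all promoters. CCAAT with or without CHR was common in both lists, in 77.8% of the G2/M genes, 57.1% of the S genes and 37.9% of all promoters. The E2F letters were found in 6 of 21 S genes (28.6%), 1 of 27 G2/M genes (3.70%) and 2.32% of all promoters. A match says only that the letters are there, not that a factor binds.

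The libraries held 4234 barcodes in room air and 13223 in hyperoxia, with 39593888 and 111934936 UMIs (unique molecular identifiers, 1 per counted mRNA molecule). After filters on cells and removal of likely doublets, 3680 and 10472 cells remained with a median of 8064 and 7236 UMIs, 13 barcodes occurring in both libraries. Clusters made without the cell cycle genes were named from marker genes, with 62 and 251 cells (1.68% and 2.40%) left outside the 5 lineages. Levels are UMIs of a gene or list divided by all UMIs of a group of cells and given on the usual CPM scale. A cell was called cycling when at least 3 UMIs of the S genes or at least 3 of the G2/M genes remained after each cell was thinned to 2000 UMIs, so that cells of unlike depth could be compared. Cells with under 2000 UMIs were left out of these shares (but not of the levels), 375 in room air and 1274 in hyperoxia, among them 110 of 241 and 386 of 1333 aerocyte-like cells and 13 of 107 and 158 of 458 neutrophil-like cells. Cells with only the S genes past this limit are called S-only, and those with the G2/M genes past it, with or without S, G2/M class. Doublet removal took unequal numbers, 14 of 550 cycling cells in room air (2.55%, against 3.76% of all cells) and 214 of 1609 in hyperoxia (13.3%, against 11.7%), so the lead results are also given without it.

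The calls were first checked against single members, each left out of the lists that called the cells. Cells called cycling with all 55 members made up 15.4% of 12503 thinned cells and held 14.3% of all UMIs. Cells called cycling by the other members held 98.1% of the UMIs of Pbk, a mitotic kinase, and 97.0% of those of the spindle gene Hmmr. For Birc5 (survivin) the share was 96.3% and for Mki67 90.0%. Mki67 was detected in 55.4% of cells past both limits, 15.4% of those past only the G2/M limit, 2.96% of S-only cells and 1.10% of the others. Among the S genes the share ran from 90.4% for Rrm2, a subunit of ribonucleotide reductase, down to 29.4% for Slbp, which binds the stem-loop of histone mRNA. Slbp, Pcna (39.2%), Rpa2 (45.3%) and Mcm4 (46.5%) were the members with most of their UMIs outside cycling cells, and their values are thus no measure of dividing cells alone.

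**Figure D1:**
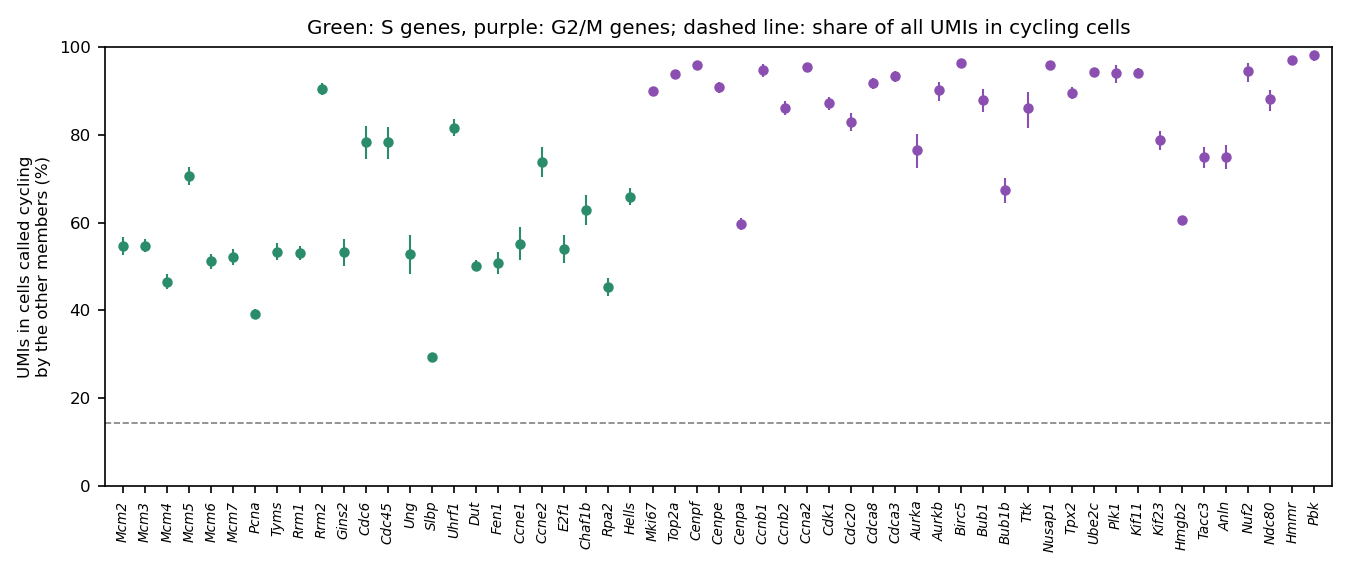
Percent of each member's UMIs (y axis) found in cells called cycling by the other members, with 95% intervals, both libraries together. The dashed line marks the 14.3% of all UMIs that these cells held, and every member lies above it, from Slbp at 29.4% to Pbk at 98.1%.

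Hmgb2, which encodes a DNA-bending chromatin protein, stood apart from the other G2/M genes. It was detected in 29.3% of cells that passed neither limit, and 60.7% of its UMIs were in cycling cells. Neutrophil-like cells serve here as background, since mature neutrophils do not divide. Whether this cluster held dividing precursors was not tested. In neutrophil-like cells Hmgb2 was detected in 91.5% of cells in room air and 81.0% in hyperoxia. Mki67 was detected in 0% and 1.0% and Top2a in 1.06% and 1.0%. Of these cells, 66.0% and 47.7% were called cycling with Hmgb2, and 2.13% (2 of 94) and 2.33% (7 of 300) without it. Slbp (12.8% and 13.3%), Kif23 (12.8% and 14.3%), Pcna (6.38% and 8.0%) and Cenpa (4.26% and 4.33%) were also found in neutrophil-like cells. A share of these genes near those values thus does not by itself mark dividing cells. Whether these UMIs were free RNA or the cells' own transcripts was not tested. Room air had 0 of 94 neutrophil-like cells in the G2/M class without Hmgb2, which allows a share of up to 3.19% as 3 counts of the total and 3.85% by the exact interval. In hyperoxia that class held 4 of 300 cells (1.33%), and 11 of 356 (3.09%) without doublet removal. Shares of myeloid cells and lymphocytes are therefore read without Hmgb2, with the share that counts it named as such. Shares of other cells count Hmgb2 unless it is said to be left out, and the plot of cycling shares shows both.

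Over all cells, the share called cycling was 16.2% in room air (536 of 3305, 95% interval 15 to 17.5) and 15.2% in hyperoxia (1395 of 9198, 14.4 to 15.9), a difference of −1.05 percentage points (−2.54 to 0.399). Without Hmgb2 the shares were 9.98% and 10.2%. The level of the summed G2/M genes was 1109 CPM in room air against 778 in hyperoxia, and that of the summed S genes 539 against 511. With the counts as deposited and not thinned, 62.3% and 53.8% of cells reached the limit, a share that follows depth. Cells at the limit or 1 UMI under it numbered 781 and 1985, so the classes are ranges on a scale and not separate populations.

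The near-equal totals held unequal cell types. In general capillary (gCap)-like endothelial cells the share of cycling cells was higher in hyperoxia, and in alveolar macrophage-like, alveolar type II (AT2)-like and alveolar fibroblast-like cells it was lower. In these 4 cell types, and in vein-like cells, which were few in room air, the interval of the difference lay on one side of 0 with and without Hmgb2. Without Hmgb2 it held 0 in every other named cell type.

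**Figure D2:**
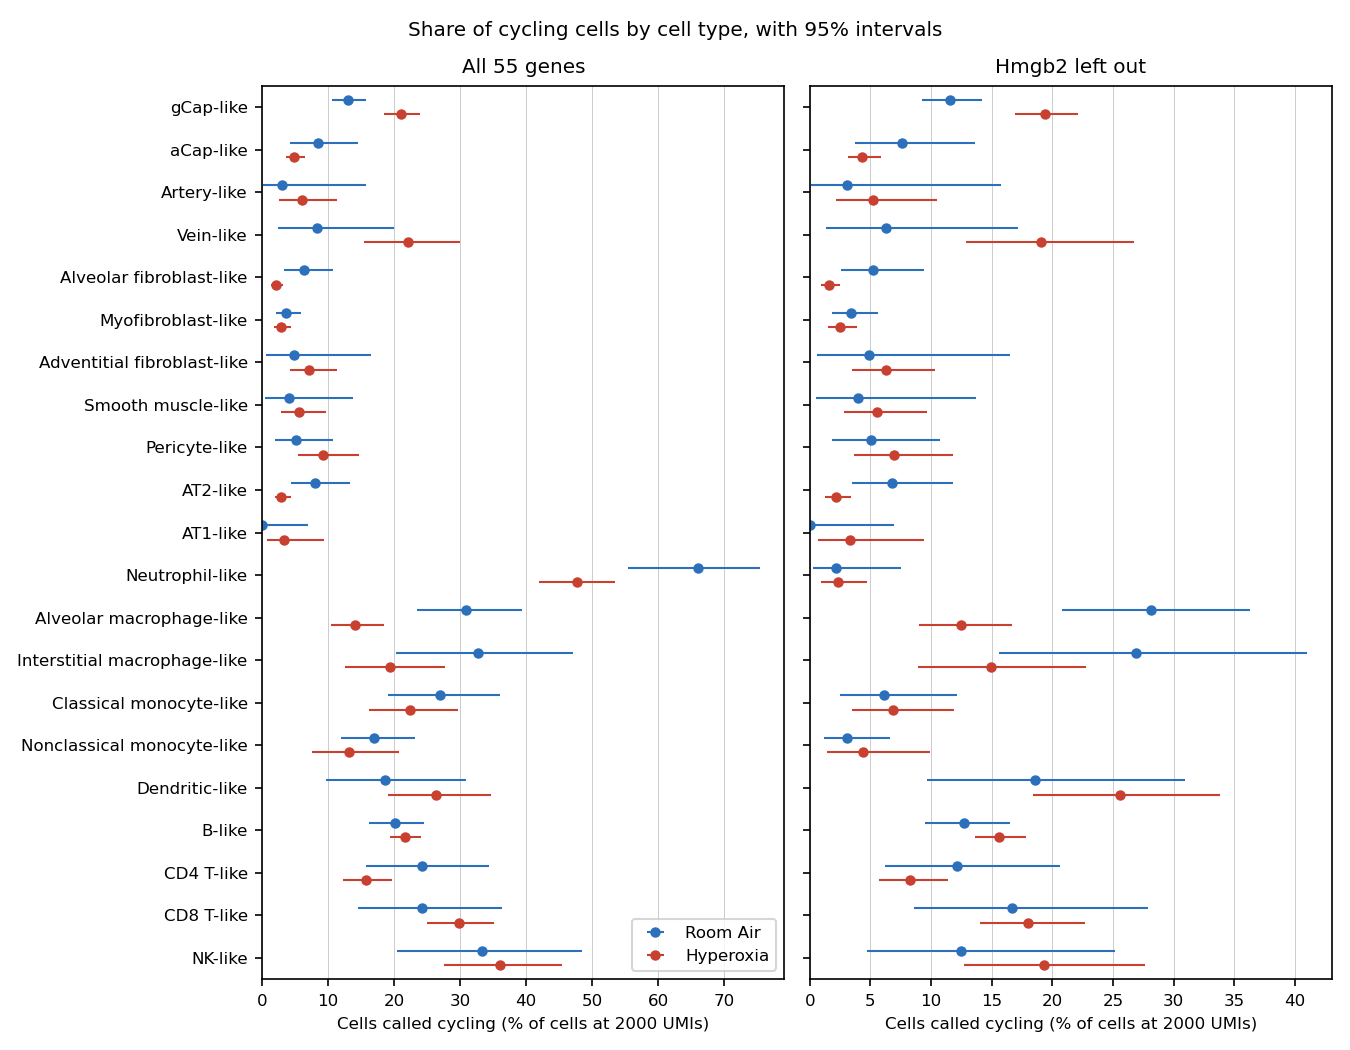
Percent of thinned cells called cycling (x axis) per cell type in room air and hyperoxia, with 95% intervals, for all 55 genes (left) and without Hmgb2 (right, another scale). With all genes the points run from 13% to 21.1% in gCap-like cells and from 30.9% down to 14.1% in alveolar macrophage-like cells, and the neutrophil-like points move from 66.0% and 47.7% to 2.13% and 2.33% when Hmgb2 is left out.

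gCap cells are the capillary cells that act as progenitors of the alveolar capillary bed. Of gCap-like cells, 88 of 675 were cycling in room air (13%, 10.6 to 15.8) and 196 of 929 in hyperoxia (21.1%, 18.5 to 23.9), a difference of 8.06 points (4.27 to 11.8). Without Hmgb2 the shares were 11.6% and 19.4% (7.82 points, 4.18 to 11.4), and without doublet removal 12.6% and 21.4% (8.76 points, 5.01 to 12.4). The difference was 4.68 points (1.79 to 7.51) after thinning to 1000 UMIs and 5.39 (0.265 to 10.4) after thinning to 4000. With a limit of 2 UMIs it was 2.46 points and its interval held 0 (−2.30 to 7.16), and with a limit of 5 it was 5.09 (2.11 to 7.99). The median depth of these cells was 7594 UMIs in room air and 8820 in hyperoxia, and before thinning 55% and 62.9% reached the limit.

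Cells past the S limit, alone or with the G2/M limit, were 10.5% of gCap-like cells in room air and 17.3% in hyperoxia (6.81 points, 3.31 to 10.2). S-only cells were 6.52% and 11.0%, and the summed S genes were at 613 and 957 CPM (log2 ratio 0.64, 0.59 to 0.70). The G2/M class was 6.52% and 10.1% with Hmgb2 (3.60 points, 0.766 to 6.35), but 4.30% and 5.49% without it (1.19 points, −1.08 to 3.37). Of the cycling cells 50% and 48.0% were in the G2/M class with Hmgb2 (−2.04 points, −15.0 to 11.0). The summed G2/M genes went the other way, at 1558 CPM in room air and 1208 in hyperoxia (−0.37, −0.41 to −0.33). In room air 50% of these G2/M UMIs came from 9 of 704 cells, and in hyperoxia from 14 of 939. Across 8 clusterings of the cells the S ratio of the gCap-like cells ran from 0.44 to 0.68. The G2/M ratio was below 0 in 7 of the 8, lowest at −2.11 with doublets ranked by the cell cycle genes too. It was 0.23 with the cell cycle genes in the clustering. Endothelial G2/M-class cells with 98.3% of that class's G2/M UMIs in room air and 92.4% in hyperoxia then fell outside the named lineages.

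Among the S genes of gCap-like cells, 22 of 24 were detected in a larger share of thinned cells in hyperoxia, with a median difference of 1.28 points against −0.0800 over all genes tested. For 9 the interval lay above 0, where 11.7% of 10452 genes did. Mcm2, Mcm3 and Mcm4 of the helicase were detected in 4.74%, 8.74% and 3.70% of cells in room air and in 8.50%, 12.8% and 6.57% in hyperoxia. Rrm1, the large subunit of ribonucleotide reductase, went from 5.04% to 9.36%, and Tyms (thymidylate synthase) from 3.26% to 6.03%. Hells, a chromatin remodeller of replicating cells, went from 3.11% to 6.35%, Gins2, a partner of the helicase, from 1.19% to 2.80%, and Chaf1b, which places histones on new DNA, from 1.48% to 3.12%. E2f1, one of the factors that bind E2F sites, was detected in 0.444% and 3.01% (2.57 points, 1.26 to 3.93).

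The other 2 were Mcm6 (7.70% and 7.21%, −3.26 to 2.16 points) and Slbp. Slbp was detected in 19.4% of gCap-like cells in room air and 13.6% in hyperoxia (−5.84 points, −9.68 to −2.08), while 12.2% of all genes lay below 0 beyond their interval. The share in hyperoxia was near that of neutrophil-like cells. Pcna was detected in 13.5% and 13.9% of gCap-like cells. Of the 31 G2/M genes, 11 had a larger and 20 a smaller share in hyperoxia (median −0.190 points), and only Cenpe, a kinetochore motor, lay beyond its interval (3.41% and 1.72%). Mki67 was detected in 4.59% and 4.52% and Top2a in 5.04% and 5.71% of gCap-like cells, both differences within counting error. In CPM the helicase genes whose promoters are printed above were at 16.6 and 39.2 (Mcm5, log2 ratio 1.24) and 40.1 and 53.4 (Mcm6, 0.41), while Ccnb2 was at 29.2 and 15.4 (−0.92). The shares of cells and the sums of UMIs thus put the S genes higher in hyperoxia, and for G2/M they differ.

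**Figure D3:**
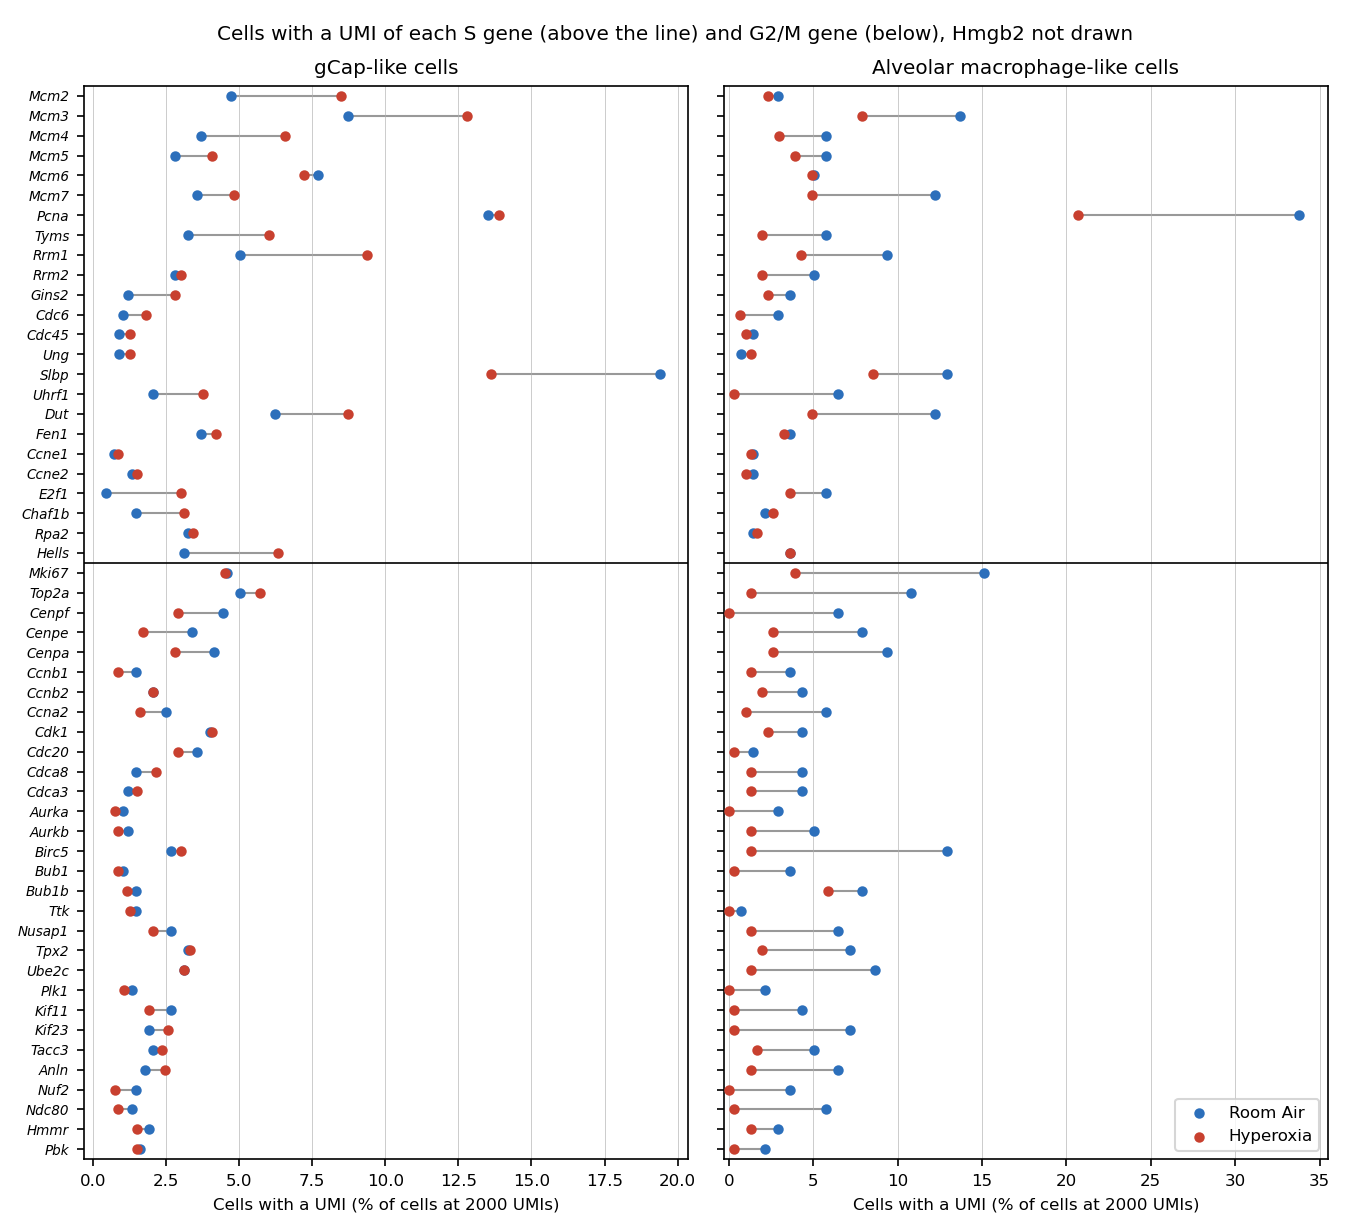
Percent of thinned cells with at least 1 UMI of each member (x axis) in room air and hyperoxia, in gCap-like cells (left) and alveolar macrophage-like cells (right), S genes above the line and G2/M genes below, Hmgb2 not drawn. In gCap-like cells 22 of 24 S genes lie further right in hyperoxia, and in alveolar macrophage-like cells every drawn G2/M gene lies further left.

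Alveolar macrophages, which clear surfactant and inhaled particles and are maintained by division in the lung, showed the opposite pattern. Of alveolar macrophage-like cells 28.1% of 139 were cycling in room air and 12.5% of 305 in hyperoxia without Hmgb2, a difference of −15.6 points (−24.6 to −7.17). With Hmgb2 counted, 43 cells of each library were cycling (30.9%, 23.4 to 39.3, and 14.1%, 10.4 to 18.5), a difference of −16.8 points (−26.0 to −8.08), and without doublet removal it was −16.3 points (30.5% and 14.2%, −25.3 to −7.76). Other thinning depths and limits gave, with Hmgb2, −14.4 to −27.7 points, each interval below 0. The median depth was higher in hyperoxia, 17676 against 13610 UMIs, and before thinning 83.6% and 81.4% reached the limit.

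With Hmgb2 counted, S-only cells were 8.63% of alveolar macrophage-like cells in room air and 9.18% in hyperoxia, whereas the G2/M class was 22.3% and 4.92% (−17.4 points, −25.5 to −10.1). Most of that class in room air was past both limits (15.1% and 1.97% of cells), so that cells past the S limit were also fewer, 23.7% and 11.1% (−12.6 points, −21.2 to −4.66). Without Hmgb2 the G2/M class was 15.8% and 2.95%, and S-only cells were 12.2% and 9.51%, the latter a difference within counting error. Of the cycling cells called with Hmgb2, 72.1% were in the G2/M class in room air and 34.9% in hyperoxia. Of those called without Hmgb2, 22 of 39 were in that class in room air and 9 of 38 in hyperoxia. The summed S genes were at 1112 and 470 CPM (log2 ratio −1.24, −1.32 to −1.16) and the summed G2/M genes at 2346 and 352 CPM (−2.74, −2.81 to −2.66). Over 8 clusterings these ratios ran from −1.28 to −1.21 and from −2.84 to −2.73. In room air 50% of the G2/M UMIs came from 6 of 146 cells and in hyperoxia from 27 of 318.

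All 31 G2/M genes were detected in a smaller share of alveolar macrophage-like cells in hyperoxia. Of these, 19 had a UMI in at least 10 cells, and 13 of the 19 lay below 0 beyond their interval, where 11.0% of 6984 genes did, with a median of −5.16 points against −0.901 over all genes. Mki67 was detected in 15.1% of cells in room air and 3.93% in hyperoxia, and was at 200 and 25.7 CPM. Top2a was detected in 10.8% and 1.31%, and was at 182 and 12.9 CPM. Birc5, part of the chromosomal passenger complex, was detected in 12.9% and 1.31%, and was at 122 and 9.62 CPM. Ube2c, which helps to mark mitotic cyclins for degradation, was detected in 8.63% and 1.31%, and Ccna2 (cyclin A2) in 5.76% and 0.984%. Bub1b, a spindle checkpoint gene, was closest, at 53.0 and 35.2 CPM and detected in 7.91% and 5.90% (−8.28 to 3.07 points). Hmgb2 was detected in 43.9% and 17.7%.

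Among the S genes of alveolar macrophage-like cells 18 had a UMI in at least 10 cells. Of these, 16 were detected in a smaller share in hyperoxia (median −2.94 points), 4 of them beyond the interval and none above it, where 4.40% of all genes lay above. Pcna was detected in 33.8% and 20.7%, Mcm7 in 12.2% and 4.92%, and Dut, which keeps uracil out of DNA, also in 12.2% and 4.92%. Uhrf1, which carries DNA methylation over to the new strand, was detected in 6.47% and 0.328%, and was at 48.1 and 4.37 CPM. Mcm6 was detected in 5.04% and 4.92% of these cells, a difference within counting error.

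AT2 cells make surfactant and are the progenitors of the alveolar epithelium. Of AT2-like cells 13 of 162 were cycling in room air (8.02%) and 24 of 829 in hyperoxia (2.90%), a difference of −5.13 points (−10.5 to −1.2). Without Hmgb2 it was −4.62 points (6.79% and 2.17%, −9.73 to −1.05). Without doublet removal it was −3.31 points (8.92% and 5.61%) and its interval held 0 (−8.15 to 0.489). Clusters were drawn and named anew in that case, and AT2-like cells numbered 263 and 1362, against 164 and 833 with doublet removal. With doublet removal, the difference was −5.75 points (−10.8 to −2.31) after thinning to 1000 UMIs and −2.75 (−9.15 to 2.33) after thinning to 4000. At a limit of 2 UMIs it was −4.33 (−11.2 to 1.36) and at 5 UMIs −5.09 (−10 to −1.77). Before thinning 67.7% and 66.3% of AT2-like cells reached the limit. The summed S genes were at 413 and 224 CPM (log2 ratio −0.88) and the summed G2/M genes at 687 and 242 CPM (−1.5), with 50% of the G2/M UMIs of room air in 3 of 164 cells. These sums thus rest on a handful of cells.

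Of the members detected in at least 10 AT2-like cells, 11 of 15 S genes and all 7 G2/M genes were found in a smaller share of cells in hyperoxia. The median differences were −1.31 points for S and −1.26 for G2/M, against 0.0767 over all genes tested. None of the 7 G2/M genes lay beyond its interval. Mcm3 was detected in 3.70% and 0.844%, Uhrf1 in 3.09% and 0.724%, and Rpa2, which coats single-stranded DNA, in 5.56% and 1.57%. These 3 S genes lay below 0 beyond their interval, as did 4.79% of 9182 genes, while 4.19% lay above and no member did. Mki67 was detected in 2.47% of AT2-like cells in room air and 1.21% in hyperoxia, and Top2a in 3.09% and 1.33%, with intervals that held 0. No cycling cell was called among 51 alveolar type I (AT1)-like cells in room air, and 3.33% of 90 in hyperoxia, where 1 cell held 79.9% of the G2/M UMIs.

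Alveolar fibroblast-like cells, the Tcf21-expressing stroma beside the AT2 cells, were cycling in 12 of 191 cells in room air (6.28%) and 23 of 1090 in hyperoxia (2.11%), a difference of −4.17 points (−8.67 to −1.0). It was −3.68 points without Hmgb2 (−7.91 to −0.825) and −4.21 points without doublet removal (−9.05 to −0.788). Thinning to 1000 UMIs gave −1.13 points and limits of 2 and 5 UMIs gave −5.14 and −1.11 points, with intervals that held 0. Mcm6 was detected in 4.71% and 0.550% of these cells. In room air 50% of the G2/M UMIs of alveolar fibroblast-like cells came from 2 cells. Myofibroblast-like cells, which form the alveolar crests, were at 3.64% and 2.89%, and there 1 cell of room air held 55.5% of the G2/M UMIs. Adventitial fibroblast-like (4.88% and 7.14%), smooth muscle-like (4.00% and 5.53%) and pericyte-like cells (5.04% and 9.25%, and 5.04% and 6.94% without Hmgb2) differed within counting error.

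Among the other endothelial cells, aerocyte (aCap)-like cells, the large gas-exchange cells of the capillary, were cycling in 8.40% in room air and 4.86% in hyperoxia (−3.54 points, −9.80 to 0.879). Vein-like cells were at 8.33% of 48 and 22.1% of 136 (13.7 points, 0.310 to 23.7). Their cluster also had Ccl21a and Lyve1, markers of lymphatic cells, among its leading genes. Without doublet removal, 12 and 46 lymphatic-like cells were named apart, and vein-like cells numbered 31 and 122. The interval of the vein-like cells then held 0 (12.6 points, −4.92 to 24.0). It also held 0 at each other depth and limit tried, from 7.48 points (−2.52 to 14) at a limit of 5 UMIs to 13.4 (−3.81 to 27.6) after thinning to 4000. With doublet removal, the summed S genes of vein-like cells differed by 0.80 and their summed G2/M genes by 1.78 on the log2 scale. Mki67 was found in 0 of 48 vein-like cells in room air and 4.41% in hyperoxia (−3.49 to 9.36 points). Artery-like cells were at 3.03% and 5.97%.

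Interstitial macrophage-like cells were cycling in 26.9% of 52 cells in room air and 14.9% of 114 in hyperoxia without Hmgb2 (−12.0 points, −27.3 to 1.81), and in 32.7% and 19.3% with it. Without doublet removal the difference was −12.1 points (−25.4 to −0.814), and it was below 0 in all 8 clusterings. Their summed S genes and summed G2/M genes both differed by −0.80 on the log2 scale (−0.95 to −0.64 and −0.91 to −0.69). Without Hmgb2, classical monocyte-like cells were at 6.09% and 6.83%, nonclassical monocyte-like cells at 3.09% and 4.39%, and dendritic-like cells at 18.6% and 25.6%. The shares of these 3 cell types differed within counting error.

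Among the 5 lineages, lymphocyte-like cells had the highest summed G2/M level, at 2730 CPM in room air and 2712 in hyperoxia (log2 ratio −0.01, −0.04 to 0.02). Without Hmgb2, B-like cells were cycling in 12.7% and 15.6%, CD8 T-like cells in 16.7% and 18.0% and natural killer (NK)-like cells in 12.5% and 19.3%. B-like cells fell into a larger and a smaller cluster, both with Ebf1 and Vpreb3 among their leading genes. In the larger, the summed S genes differed by −0.03 and the G2/M genes by −0.51. The smaller also had Rag1 and Vpreb1, genes of B cell precursors, among its leading genes. It held 24 and 187 cells, of which 23.8% and 36.6% were cycling. CD4 T-like cells were cycling in 12.1% and 8.25% without Hmgb2 (−3.84 points, −12.7 to 2.87) and in 24.2% and 15.7% with it. Their G2/M class without Hmgb2 held 6 and 4 cells, 6.59% and 1.03% (−5.56 points, −12.8 to −1.13). These cells were named in 5 of 8 clusterings, and under strict filters the cycling share without Hmgb2 differed by 2.21 points. Cells of an unnamed lymphocyte cluster led by Ccl5, Gzma and Nkg7, genes of cytotoxic lymphocytes, were cycling in 34.8% and 42.3% without Hmgb2.

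Lineage sums place the members side by side, and within each lineage only genes with a mean of at least 10 CPM over both libraries were compared. Some members reached 10 CPM in room air alone and so had to be lower, 6 in endothelial, 3 in stromal, 5 in epithelial and 6 in myeloid cells and 2 in lymphocytes, and none did in hyperoxia alone. Counts of members are thus descriptions of those that passed. Over all cells together, 48.7% of the 9356 genes compared were lower in hyperoxia, a share that can differ by lineage and is no lineage's own. The typical gene also differed by lineage, as read from TMM factors (trimmed means of log ratios). On the log2 scale this shift was −0.07 in endothelial, −0.03 in stromal, −0.08 in epithelial and −0.13 in myeloid cells and 0.06 in lymphocytes. In endothelial cells (1029 and 2552 cells) the summed S genes were at 557 CPM in room air and 635 in hyperoxia (log2 ratio 0.19, 0.14 to 0.24), and the summed G2/M genes at 1192 and 682 CPM (−0.81, −0.84 to −0.77). The share of cycling endothelial cells was 11.7% and 13% (1.32 points, −1.37 to 3.86). Of 16 S genes compared, 14 were higher in hyperoxia, and all 21 G2/M genes compared were lower. None of these S genes was 2-fold higher, as 1.81% of 8395 genes were, and 7 G2/M genes were at least 2-fold lower, as were 2.53% of genes, 5 of the 7 being among those that reached 10 CPM in room air alone. The G2/M sum of endothelial cells was carried by few cells, 50% of it by 10 cells in room air and 24 in hyperoxia. When each library was clustered on its own, 26 of the 49 endothelial G2/M-class cells of room air, with 91.5% of their G2/M UMIs, fell into a cluster without a lineage, against 0 of 128 in hyperoxia, and the G2/M ratio became 1.19.

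The 2 S genes that were lower were Rrm2, at 23.7 and 13.4 CPM (−0.82, −1.10 to −0.55), and Slbp. Among the endothelial S genes with the most UMIs, Slbp was at 98.6 and 77.1 CPM (log2 ratio −0.36), Pcna at 75.5 and 80.4 (0.09) and Mcm3 at 51.9 and 62.6 (0.27). Hells (18.3 and 29.7), Mcm5 (14.4 and 23.1) and Mcm2 (22.9 and 35.6) had the highest ratios, between 0.63 and 0.70. On the G2/M side Hmgb2 was at 403 and 260 CPM (−0.63), Top2a at 99.3 and 55.7 (−0.84) and Mki67 at 75.4 and 39.9 (−0.92). Nusap1, which bundles spindle microtubules, was lowest at 27.9 and 9.57 (−1.54), followed by Ccnb2 (21.8 and 9.52) and Cenpe (28.4 and 12.7).

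In stromal cells (853 and 2634 cells) the S sum was 326 and 274 CPM (log2 ratio −0.25, −0.31 to −0.20) and the G2/M sum 328 and 207 CPM (−0.66, −0.72 to −0.60), with cycling shares of 4.55% and 3.60%. The G2/M ratio was −0.18 without doublet removal, −1.18 with double the doublets removed and −0.06 with the cell cycle genes in the clustering. All 6 G2/M genes compared were lower in hyperoxia. The 3 that were at least 2-fold lower, as were 1.37% of 8789 genes, were Cenpf, a large kinetochore protein, at 16.6 and 4.55 CPM, Ube2c at 16.6 and 5.20, and Mki67 at 27.0 and 12.6. Of these only Mki67 reached 10 CPM in both libraries. No member was 2-fold higher, as 1.64% of genes were. Rrm1 was the stromal S gene with the highest ratio (15.6 and 18.4 CPM, 0.24). As 4 cells held 50% of the stromal G2/M UMIs of room air against 138 in hyperoxia, these ratios weigh a few cells heavily.

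In epithelial cells (259 and 979 cells) the S sum was 330 and 241 CPM (log2 ratio −0.45, −0.54 to −0.37) and the G2/M sum 444 and 258 CPM (−0.78, −0.86 to −0.71). The share of cycling cells was 6.25% and 2.92% (−3.33 points, −7.30 to −0.325), and −2.73 points without Hmgb2 (−6.40 to −0.0646). Without doublet removal it was −1.16 points (−4.94 to 1.87), and the interval also held 0 with double the doublets removed, with the cell cycle genes in the clustering, after thinning to 4000 UMIs and at a limit of 2 UMIs. Over the alternatives the G2/M ratio ran from −1.46 to −0.49. Of 15 members compared, 13 were lower and 6 at least 2-fold lower, as were 5.41% of 7742 genes, and none was 2-fold higher, as 1.08% were. Ube2c was at 24.5 and 8.10 CPM, Cenpf at 14.8 and 5.32, Hells at 17.4 and 6.45, Mki67 at 24.7 and 10.9 and Top2a at 25.8 and 12.9. Of the 6, Mki67 and Top2a reached 10 CPM in both libraries. Dut was at 31.6 and 35.0, the highest ratio (0.15, −0.11 to 0.42).

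In myeloid cells (733 and 1337 cells) the S sum was 687 and 481 CPM (log2 ratio −0.51, −0.57 to −0.46) and the G2/M sum 1737 and 878 CPM (−0.99, −1.02 to −0.95). The cycling share was 12.1% and 9.94% without Hmgb2 (−2.16 points, −5.39 to 0.900). Over the alternatives the G2/M ratio ran from −0.32, as a mean over cells, to −1.66, with double the doublets removed. Of 41 members compared, 40 were lower and 18 at least 2-fold lower (12 of them with 10 CPM in both libraries), as were 2.58% of 7648 genes, and none was 2-fold higher, as 1.44% were. Nusap1 was at 40.3 and 11.7 CPM (−1.79), Cenpf at 42.6 and 13.4 (−1.67), Tacc3, a spindle protein, at 27.4 and 10.1 (−1.45), and Top2a at 112 and 42.1 (−1.41). Mcm2 was higher (14.7 and 17.8, 0.28, −0.08 to 0.64), and Bub1b was at 23.3 and 23.1. The median log2 ratio of all genes compared was −0.10 in this lineage. The cycling myeloid cells called without Hmgb2 were deeper than the rest, with medians of 15566 against 7404 UMIs in room air and 14860 against 7071 in hyperoxia.

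In lymphocytes (744 and 2719 cells) the S sum was 1019 and 1156 CPM (log2 ratio 0.18, 0.14 to 0.23). Of 48 members compared, 26 were higher and 22 lower, none by 2-fold, as 0.695% of 7629 genes were higher and 0.328% lower by that much. Bub1b (13.6 and 21.9 CPM, 0.68), Mcm2 (24.8 and 37.9, 0.61) and Ccne1, which encodes cyclin E1 (14.7 and 21.6, 0.56), had the highest ratios. Aurka, the Aurora A kinase, was lowest at 13.4 and 9.19 (−0.55), then Nusap1 at 66.8 and 48.7 (−0.46) and Hmmr at 37.6 and 29.2 (−0.37). Top2a (243 and 228) and Mki67 (179 and 183) differed within counting error.

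**Figure D4:**
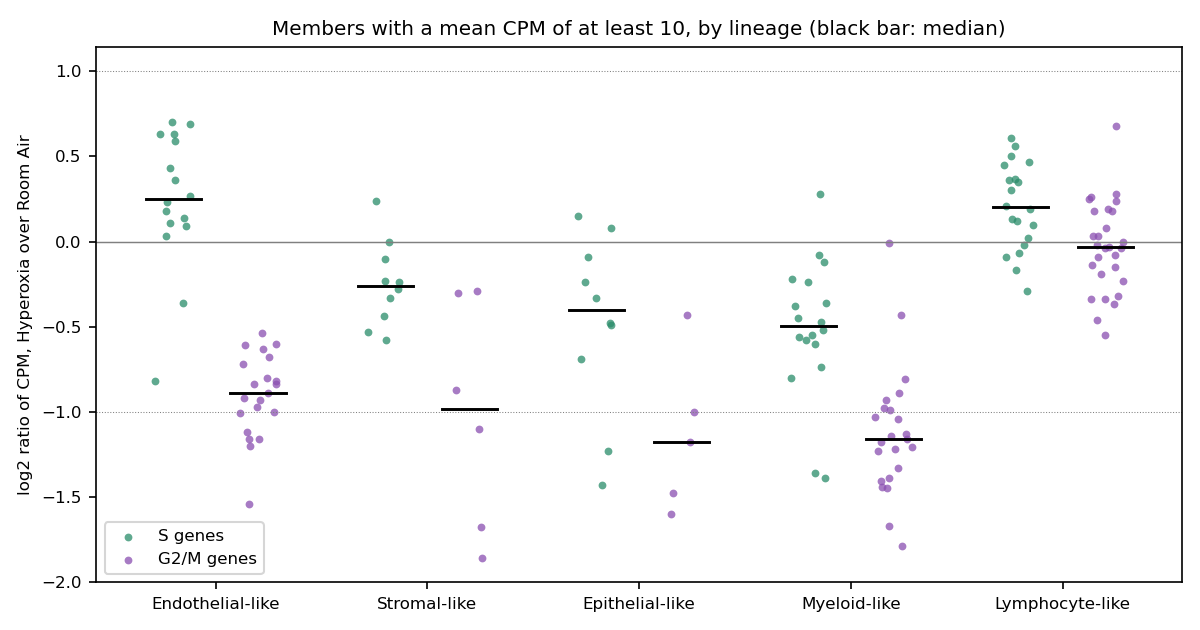
Log2 ratio of CPM, hyperoxia over room air (y axis), of each member with a mean of at least 10 CPM in the 5 lineages, S and G2/M genes side by side, black bars at the list medians and dotted lines at 2-fold. The endothelial lists lie apart, with medians of 0.25 for S and −0.89 for G2/M, and the lymphocyte lists lie around 0.

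Other genes of the cycle, from lists outside the 55, were read the same way. Beside their counts stand the shares of all genes given above, those past 2-fold in each lineage and 48.7% lower over all cells together. The latter is not the share of any single lineage. Of 36 further replication genes, 21 were compared in endothelial cells, 14 higher and 7 lower in hyperoxia (median 0.12), and Lig1, the ligase that joins replicated fragments, was at 25.5 and 41.2 CPM. In myeloid cells 20 of 21 were lower, among them Tk1 (thymidine kinase, 26.8 and 9.81 CPM) and Clspn (20.1 and 8.79), in stromal cells 7 of 11, in epithelial cells 9 of 12, and in lymphocytes 6 of 29. Of 46 further G2 and M genes, 19 of 20 were lower in endothelial cells (median −0.64), led by Fam64a (19.4 and 6.11 CPM), Ckap2l (18.2 and 6.66) and Aspm (17.6 and 8.28). They were lower in 18 of 19 in myeloid cells (median −1.11), 7 of 7 in stromal cells, where Prc1, which bundles the spindle midzone, was at 17.6 and 7.34 CPM, 9 of 9 in epithelial cells and 21 of 35 in lymphocytes. Tk1, Clspn, Fam64a, Ckap2l, Aspm and Prc1 reached 10 CPM in room air alone and so had to be lower. As for the members, these counts thus only describe the genes that passed.

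Of 18 genes of G1 and the restriction point, few passed 2-fold. Ccnd1, the cyclin D1 that growth factor signals induce before S, was at 373 CPM in room air and 1015 in hyperoxia in endothelial cells (log2 ratio 1.44), at 80.1 and 166 in stromal cells (1.05) and at 6.00 and 16.1 in lymphocytes (1.42). In lymphocytes Ccnd1 reached 10 CPM in hyperoxia alone and so had to be higher. Ccnd2 (cyclin D2) was at 171 and 76.1 CPM in epithelial cells (−1.17), and Myc at 10.6 and 25.4 in myeloid cells (1.27). Of the G1 genes compared, 5 of 14 were higher in endothelial cells, 5 of 11 in stromal, 3 of 11 in epithelial, 6 of 12 in myeloid cells and 9 of 13 in lymphocytes, so the list did not move as one.

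**Figure D5:**
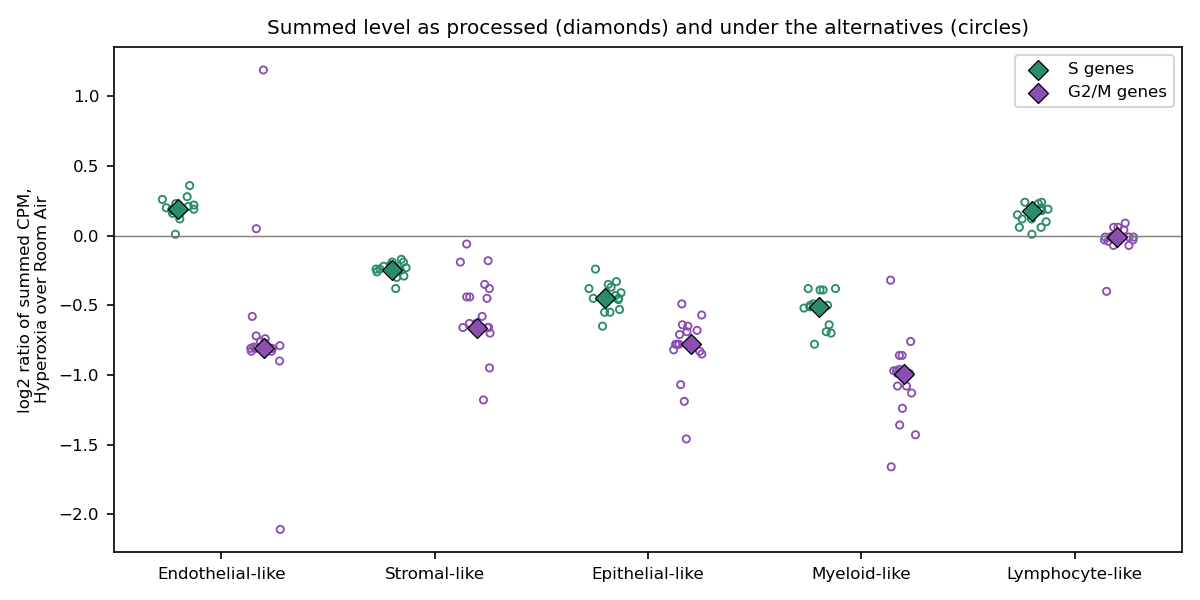
Log2 ratio of the summed CPM, hyperoxia over room air (y axis), of the S and G2/M genes per lineage, as reported (diamonds) and under each other way of processing (circles). The endothelial G2/M value, −0.81 as reported, spreads from −2.11 to 1.19, whereas the circles of the other lineages keep to one side of 0 except for lymphocytes.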

How the data were processed

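Counts of 2 libraries of lung cells, 1 from room air and 1 from hyperoxia, were used as deposited. The authors made the counts with Cell Ranger on the mm10 genome as raw UMIs per gene and barcode, with no normalization. Their headers give software version 3.1.0, the submitters' processing notes version 2.1.1 and the protocol version 6.1.1, and the sources also differ on the version of the 10x kit.

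A minimum of 500 genes per barcode and a maximum of 20% mitochondrial UMIs left 3809 and 11711 cells. The analysis used pandas 2.3.3, scipy 1.17.1 and numpy 2.4.6 under Python 3.11.15. Simulated doublets (2 per cell) ranked the cells, and 0.8% per 1000 barcodes were removed (129 and 1239). The ranking left out the cell cycle genes, a step chosen after the values were seen, since with these genes it removed 35.8% of the hyperoxia cells and 1.74% of the room air cells past both limits. Clusters were made from 2000 variable genes without cell cycle genes, 30 principal components and 20 neighbours (scikit-learn 1.9.0, igraph 0.11.9, leidenalg 0.10.2, resolution 1, seed 1). They were named "-like" when at least 3 markers were raised and the leading genes agreed in kind, a rule set after the clusters were seen. Ciliated cells formed no cluster.

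CPM are UMIs scaled to the summed UMIs of a group of cells. Intervals are 95%: exact Poisson for CPM, exact conditional for ratios, Clopper-Pearson for shares, and for differences a combination of both shares' bounds. They cover counting error only. With 1 library per group no test between conditions exists and no p-value is given. Ratios, intervals and thinning were tested on simulated data. All 55 members could be named. Values are given for the 3 S and 3 G2/M genes with most UMIs in each lineage and the 3 highest and lowest ratios (mean of at least 10 CPM), for members found mostly outside cycling cells, and of other lists for genes past 2-fold, at most 5 per list and lineage. Lig1 and endothelial Rrm2, Gins2 and Ccne2 were chosen after their values were seen. Members and lists were chosen with earlier results of these data known. Promoters are from RefSeq (GRCm38.p6). Figures were drawn with matplotlib 3.10.9.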

Additional observations from a re-analysis of the deposited data

Results flagged for a closer look

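The change in the share of cycling cells between the libraries had opposite signs in different cell types. It was 8.06 points higher in hyperoxia in gCap-like cells, and −4.17 points in alveolar fibroblast-like, −5.13 points in AT2-like and −16.8 points (−15.6 without Hmgb2) in alveolar macrophage-like cells. Each interval lay on one side of 0 with and without Hmgb2. With 1 library per condition the difference between cell types was not tested. The interval of the gCap-like cells held 0 at a limit of 2 UMIs, that of the AT2-like cells without doublet removal, after thinning to 4000 UMIs and at a limit of 2, and that of the alveolar fibroblast-like cells after thinning to 1000 UMIs and at limits of 2 and 5.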

How the results depend on the processing

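Log2 ratios are for summed levels, given as S and G2/M, and shares are in points of cycling cells. No paired analysis was possible because each condition has 1 library, and leaving it out leaves no comparison. The cause of the changes below was not tested unless named.

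In endothelial cells the S ratio (0.19) was 0.36 with each library clustered on its own, 0.01 with doublets ranked by the cell cycle genes too, 0.26 with TMM factors, 0.28 with size factors by the median of ratios and 0.12 as a mean over cells. The G2/M ratio (−0.81) turned to 0.05 with the cell cycle genes in the clustering and to 1.19 with each library on its own, when the dividing cells of room air left the lineage. It was −2.11 with doublets ranked by these genes, −0.76 with double the doublets, −0.90 without Hmgb2, −0.74 with TMM, −0.72 with size factors and −0.58 as a mean over cells. The share (1.32) was −1.57 after thinning to 4000 UMIs, −2.27 at a limit of 2 UMIs and 3.83 (1.28 to 6.22) with each library on its own.

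In stromal cells the S ratio (−0.25) was −0.17 without doublet removal, −0.38 with double, −0.19 as a mean over cells and −0.19 without the top cell. The G2/M ratio (−0.66) was −0.18 without doublet removal, −1.18 with double, −0.38 with doublets ranked by cell cycle genes, −0.45 under strict filters, −0.44 at resolution 0.5, −0.06 with cell cycle genes in clustering, −0.95 without Hmgb2, −0.19 as a mean over cells, −0.58 for members of at least 10 CPM, −0.35 without the top cell and −0.44 without low-depth clusters. The share (−0.953) was −4.11 at 4000 UMIs, −2.78 at a limit of 2 and −2.08 (−3.88 to −0.553) with double the doublets removed.

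In epithelial cells the S ratio (−0.45) was −0.24 without doublet removal, −0.55 with double, −0.55 with cell cycle genes in clustering, −0.65 with doublets ranked by them, −0.35 without mitochondrial, ribosomal and haemoglobin genes, −0.37 with size factors and −0.33 for members of at least 10 CPM. The G2/M ratio (−0.78) was −0.49 without doublet removal, −1.07 under strict filters, −0.57 with cell cycle genes in clustering, −1.46 with doublets ranked by them, −1.19 without Hmgb2, −0.68 without mitochondrial, ribosomal and haemoglobin genes, −0.69 with size factors, −0.64 for members of at least 10 CPM and −0.65 without the top cell.

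In myeloid cells the S ratio (−0.51) was −0.39 without doublet removal, −0.78 with double, −0.69 under strict filters, −0.70 with cell cycle genes in clustering, −0.64 with doublets ranked by them, −0.39 with TMM, −0.38 with size factors and −0.38 as a mean over cells. The G2/M ratio (−0.99) was −0.76, −1.66, −1.36, −1.24, −1.43, −0.86, −0.86 and −0.32 in that order, −1.13 without Hmgb2, −1.08 without low-depth clusters and −1.08 without neutrophil-like cells. The share, with Hmgb2 counted (−4.08), was −12.9 at 4000 UMIs.

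In lymphocytes the S ratio (0.18) was 0.10 with cell cycle genes in clustering, 0.23 with each library on its own, 0.01 with doublets ranked by cell cycle genes, 0.12 with TMM, 0.12 with size factors, 0.06 as a mean over cells, 0.24 without the top cell, 0.24 without barcodes in both libraries and 0.06 without both Rag1 clusters. The G2/M ratio (−0.01) was 0.09 with each library on its own, −0.40 with doublets ranked by cell cycle genes, −0.04 without mitochondrial, ribosomal and haemoglobin genes, −0.07 with TMM, −0.07 with size factors, 0.04 without the top cell, 0.06 without shared barcodes and 0.06 without low-depth clusters.

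Members at least 2-fold lower fell from 7, 3, 6 and 18 in endothelial, stromal, epithelial and myeloid cells to 1, 0, 0 and 2 at a mean of at least 50 CPM, where fewer members were compared. TMM factors moved the median of all genes by −0.13 (log2) in myeloid cells, the only lineage with a shift beyond 0.1. The alternatives on shared barcodes, doublet ranking, Rag1 clusters, neutrophil-like cells, low-depth clusters and the top cell were chosen after seeing the data.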
